A study of Caenorhabditis elegans with 12 samples.

Results

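Of 9 genes of the piRNA and RNAi pathways followed here in Caenorhabditis elegans germ lines, 7 had a probe, and 3 of those had lower RNA than wild type. These were eri-7 and tdrd-3 in mes-2 mutants, in mes-4 mutants and in the double mutant, and tofu-2 in mes-4 mutants and in the double mutant. The other 4, tofu-1, eri-6, ego-1 and rrf-1, had fitted log2 ratios between -0.12 and 0.28. The 9 genes, tofu-2, tofu-1, tofu-6, eri-7, eri-6, tdrd-3, ego-1, rrf-1 and mut-16, were listed by symbol and looked up in the platform's probe annotation. They had been picked with their mutant-over-wild-type ratios on these same arrays in view, so those ratios are given below as a description and carry no test. All 7 genes with a probe were among the 12887 genes with enough values to be analysed, whereas tofu-6 and mut-16 were not analysed here. A name for the set such as factors that fall therefore holds for 3 of the 7 genes measured.

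The RNA came from dissected germ lines of adult worms grown at 20 °C, and each of 12 two-colour arrays carried 1 mutant and 1 wild-type sample. The 3 mutant groups, with 4 arrays each, were mes-2 (strain SS0186), mes-4 (strain SS0803) and the mes-2; mes-4 double mutant (strain SS0965). The wild type was unc-4(e120) on the mes-2 and double mutant arrays and N2 on the mes-4 arrays, so a difference between mes-4 and the other mutants is also a difference between wild-type strains. For the double mutant, germ lines were picked that had proliferated well and held oocytes, whereas the other germ lines were taken from adults that held few or no fertilized embryos. The labels name no mes allele. Each value is a log ratio within an array, read as log2 of mutant over wild type, and neither its base, its normalization nor its direction is stated in the sources used here.

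MES-2 is the H3K27 methyltransferase of the worm Polycomb complex, and MES-4 is an H3K36 methyltransferase that acts in the germ line. piRNAs are short RNAs bound by the Piwi protein PRG-1. They are cut from individually transcribed precursors, and they direct RNA-dependent RNA polymerases to make secondary siRNAs against foreign or unwanted transcripts in the germ line. The same polymerases also amplify the response to double-stranded RNA and to a separate class of endogenous siRNAs that depends on the ERI factors.

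The targeted genes and the spread of the arrays set the frame for these values. The mes-2 probe lay at -2.80 in mes-2, at -2.49 in the double mutant and at -0.21 in mes-4 (SE 0.20). The mes-4 probe lay at 0.10, 0.63 and -0.03 in mes-2, mes-4 and the double mutant (SE 0.24), and without a named allele it cannot be told whether it would report the lesion. Array medians lay between -0.01 and 0.02, and 17297 to 21879 of 22490 probes had a value on an array. After the group and dye terms, mes-4 array 3 and double mutant arrays 1 and 4 stood apart from double mutant arrays 2 and 3 along 1 axis that held 47.0% of the remaining variance. The axis does not tell which side is atypical. In the setting with array weights, double mutant arrays 1 to 4 had weights of 0.79, 0.372, 0.252 and 2.01, and mes-4 array 3 had 0.398. Precision is set by the number of arrays, since ratios carry no depth. A ratio gives no level, so the presence of germ line RNA could not be checked directly. Of 8 measured germ line markers, 4 were called lower in the double mutant, against 6.25% of all genes. The median of the 8 was -0.30 there, with array medians from -0.57 to -0.14. In bulk RNA, fewer cells of a type and less RNA per cell cannot be told apart.

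**Figure D1:**
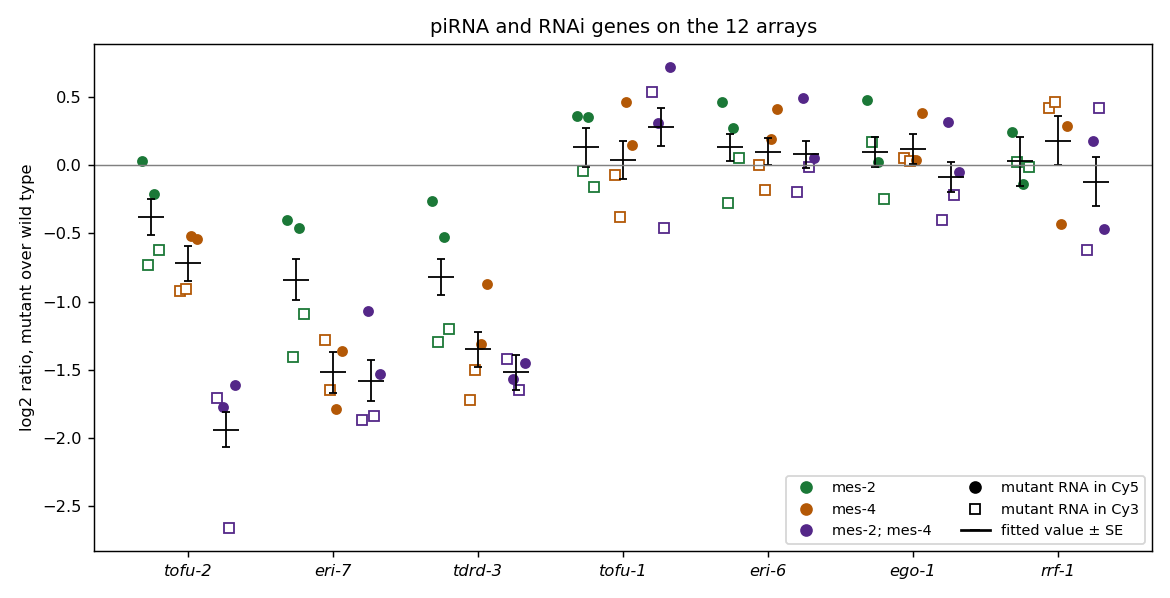
Log2 ratio of mutant over wild type (vertical axis) for each of the 7 genes measured, on each of the 12 arrays, by mutant group (circles: mutant RNA in Cy5, squares: in Cy3), with the fitted value and its SE in black. In the double mutant tofu-2, eri-7 and tdrd-3 lie between -2.66 and -1.07 on every array, and the other 4 genes lie between -0.62 and 0.72.

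Among the piRNA processing genes, tofu-2 was lowest in the double mutant, and tofu-1 was not called lower in any mutant. TOFU-1 and TOFU-2 are partners of SLFL-3 in the nuclease that trims the 5′ ends of piRNA precursors. The tofu-2 gene (F20A1.9, chromosome V) gave log2 ratios of -1.71, -1.77, -2.66 and -1.61 on the double mutant arrays 1 to 4. In mes-4 its values were -0.92, -0.91, -0.52 and -0.54, and in mes-2 they were 0.03, -0.73, -0.21 and -0.62. The double mutant values lay below all 8 single mutant values, and the single mutants overlapped, with 1 mes-2 array above 0. The fitted ratios were -1.94 in the double mutant, -0.72 in mes-4 and -0.38 in mes-2 (SE 0.13 each, n = 4). On base 2 these correspond to 26.1%, 60.6% and 76.7% of the wild-type RNA. Its ratio in the double mutant was the 12th lowest of the 12887 genes.

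The partner gene tofu-1 (C27H6.3, chromosome V) did not share this pattern. Its ratios were 0.36, -0.04, 0.35 and -0.16 in mes-2, and -0.07, -0.38, 0.46 and 0.15 in mes-4. The double mutant gave 0.54, 0.31, -0.46 and 0.72. Each mutant had values on both sides of 0. Fitted over each group they were 0.13, 0.04 and 0.28 (SE 0.14 each), and the 95% interval in the double mutant ran from -0.04 to 0.59. Over the 12 arrays tofu-2 and tofu-1 differed by a root mean square of 1.39 on the log2 scale.

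Of the ERI pair, eri-7 was low in all 3 mutants and its neighbour eri-6 stayed near 0. The genes eri-6 and eri-7 lie next to each other on chromosome I, and their separate pre-mRNAs are joined by trans-splicing into an mRNA for the ERI-6/7 helicase of the endogenous siRNA pathway. For eri-7 (C41D11.7) the ratios were -1.28, -1.65, -1.79 and -1.36 in mes-4, and -1.87, -1.07, -1.84 and -1.53 in the double mutant. In mes-2 they were -0.40, -1.41, -0.46 and -1.09. The mes-4 values lay within the range of the double mutant, and mes-2 arrays 1 and 3 lay above all of them. The fitted ratios were -0.84 in mes-2, -1.52 in mes-4 and -1.58 in the double mutant (SE 0.15 each), or 55.9%, 34.9% and 33.5% of wild type on base 2.

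For eri-6 (C41D11.1) the values were 0.46, -0.28, 0.27 and 0.05 in mes-2, and 0.00, -0.18, 0.19 and 0.41 in mes-4. The double mutant gave -0.20, 0.49, -0.01 and 0.05. The groups overlapped throughout. Fitted ratios of 0.13, 0.10 and 0.08 (SE 0.10 each) resulted, with 95% intervals that began at -0.09, -0.11 and -0.13. The root mean square difference between eri-7 and eri-6 over the 12 arrays was 1.47. Which exons of the joined and unjoined transcripts each probe covers is not given in the sources used here.

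The tdrd-3 gene (Y50D4C.3, chromosome V), named for its Tudor domain, a fold that binds methylated residues on proteins, was also low in all 3 mutants. Its ratios were -1.72, -1.50, -1.31 and -0.87 in mes-4, and -1.42, -1.57, -1.65 and -1.45 in the double mutant. In mes-2 they were -0.26, -1.30, -0.53 and -1.20. The double mutant arrays lay close together (SD 0.11), while mes-2 split into a higher and a lower pair of arrays (SD 0.51). The fitted ratios were -0.82, -1.35 and -1.52 in mes-2, mes-4 and the double mutant (SE 0.13 each), or 56.5%, 39.2% and 34.8% of wild type on base 2. The profiles of tdrd-3 and eri-7 differed by a root mean square of 0.32 over the 12 arrays, close to the 0.34 between ego-1 and rrf-1.

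The RNA-dependent RNA polymerase genes ego-1 and rrf-1, which lie next to each other on chromosome I, stayed near 0. EGO-1 acts in the germ line, and both enzymes make secondary siRNAs. For ego-1 (F26A3.3), taken as the mean of 2 probes, the fitted ratios were 0.10, 0.12 and -0.09 in mes-2, mes-4 and the double mutant (SE 0.11 each). The lowest and highest array values were -0.40 and 0.48. The probes did not agree array by array. On the double mutant arrays the first probe gave -0.78, 0.12, 0.10 and -0.66, and the second gave -0.02, 0.51, -0.53 and 0.56. Their means there had opposite signs, at -0.30 and 0.13.

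For rrf-1 (F26A3.8) the ratios were 0.24, 0.02, -0.14 and -0.01 in mes-2, and 0.42, 0.46, -0.43 and 0.29 in mes-4. The double mutant arrays gave -0.62, 0.18, 0.42 and -0.47. Its low values fell on mes-4 array 3 and double mutant arrays 1 and 4, the arrays on 1 side of the axis given above. Its fitted ratios were 0.03, 0.18 and -0.12 (SE 0.18 each), and without those 3 arrays the double mutant value was 0.30. Over the 25 other settings the double mutant value of rrf-1 ran from -0.54 to 0.30. These polymerase genes are related in sequence, so a probe of one may also bind RNA of another. The Mutator scaffold gene mut-16 and the piRNA factor gene tofu-6 have no value here.

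By the threshold of adjusted p under 0.05 from limma, a linear model across all genes, 2 of the 7 genes were called lower in mes-2 (eri-7 and tdrd-3), where 1.30% of all genes were. In mes-4, 3 of 7 were called lower (tofu-2, eri-7 and tdrd-3), against 1.39% of all genes. The same 3 were called lower in the double mutant, against 6.25% of all genes. None of the 7 was called higher in any mutant, by the adjusted or the unadjusted p. By the adjusted p, 3.94%, 2.52% and 9.62% of all genes were called higher in mes-2, mes-4 and the double mutant. Some settings with fewer or reweighted arrays did call members higher. For tofu-1 the double mutant value was called higher at 0.46 without double mutant array 3, at 0.46 with array weights and at 0.63 without double mutant arrays 2 and 3. For rrf-1 the mes-4 value was called higher at 0.38 without mes-4 array 3 and double mutant arrays 1 and 4. The genes were chosen from these same ratios, so the counts say nothing beyond the choice. The mes-4 call of tofu-2 was lost without mes-4 array 1 (-0.74) or array 4 (-0.70), and the mes-2 call of eri-7 was lost without mes-2 array 2 (-0.71). The median of the 7 was 0.03 in mes-2, 0.04 in mes-4 and -0.12 in the double mutant, and the median of all genes was -0.0025, -0.0025 and 0.005.

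Markers of other cell types moved in different mutants. Sperm markers had a median of -0.33 over their fitted ratios in the double mutant. Taken on each array, their median ran from -0.22 to -0.05, so the fitted median lay outside that range. In the double mutant 3 of 10 were called lower, against 6.25% of all genes, and 1 higher, against 9.62%. In mes-4 their median was -0.10 with 2 called lower, against 1.39% of all genes. In mes-2 it was 0.06 with 2 called higher, against 3.94%. Intestine markers had a median of -0.92 in mes-4 (array medians from -1.51 to -0.17), with 0 of 11 called by limma and 9 lower at an unadjusted p under 0.05, but lay at 0.04 in mes-2 and 0.05 in the double mutant. Epidermis markers had a median of -0.68 in mes-4 (array medians from -1.15 to -0.06), with 1 of 8 called lower, against 1.39% of all genes. They lay at 0.05 in mes-2 and -0.07 in the double mutant. Neuron markers had a median of 0.78 in the double mutant (array medians from 0.42 to 0.84), with 3 of 5 called higher, against 9.62% of all genes. They lay at 0.15 in mes-2 and 0.30 in mes-4. Oocyte markers lay at 0.12, 0.06 and -0.05 in mes-2, mes-4 and the double mutant. Sheath and spermatheca markers lay at -0.01, -0.06 and -0.06, and body wall muscle markers at -0.14, -0.20 and -0.12. In the double mutant 1 of 9, 0 of 8 and 1 of 7 of these were called lower, against 6.25% of all genes. At an unadjusted limma p under 0.05, 3, 3 and 2 were lower there. In mes-4 and the double mutant, tofu-2 stood at -0.72 and -1.94, eri-7 at -1.52 and -1.58, and tdrd-3 at -1.35 and -1.52. The part of any of these marker lists, or of the germ line list, in those ratios was not tested.

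**Figure D2:**
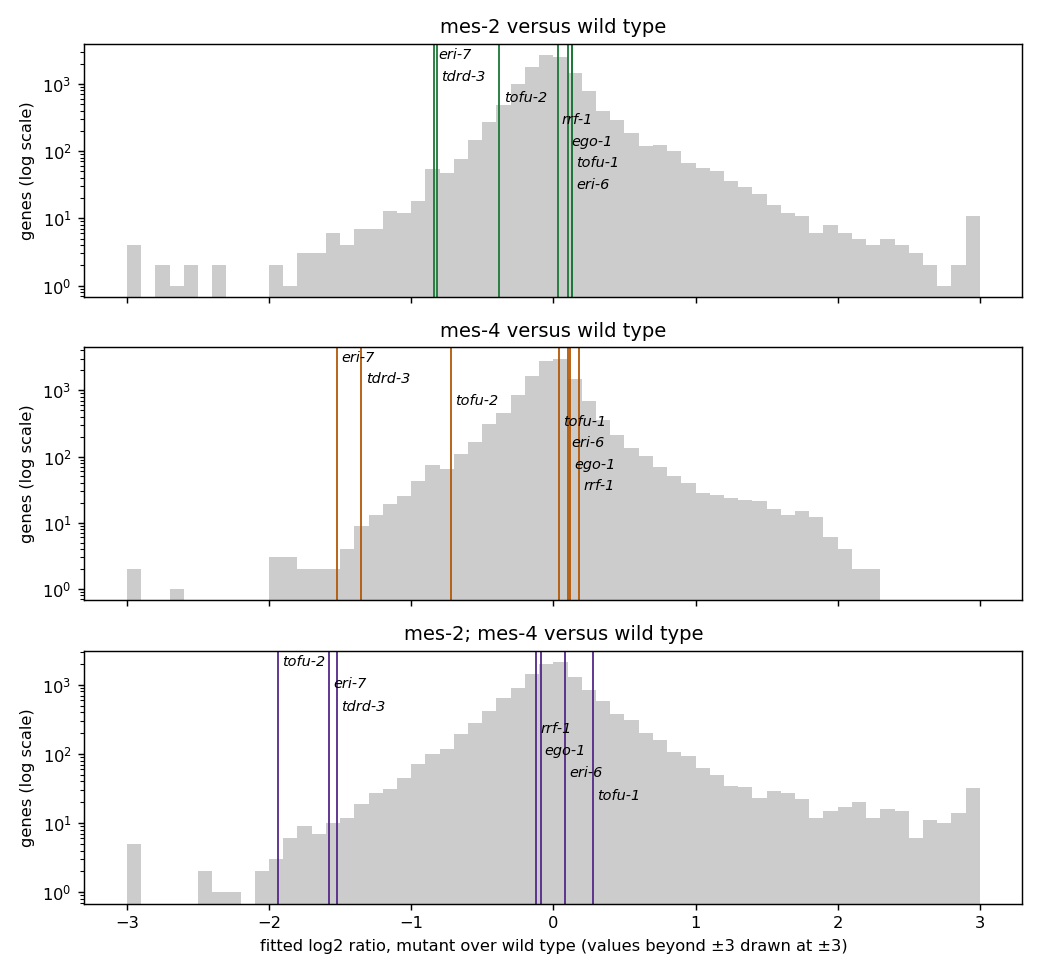
Distribution of the fitted log2 ratio of mutant over wild type over all 12887 genes in each mutant (grey, number of genes on the vertical axis), with the 7 genes marked. The marks of tofu-2, eri-7 and tdrd-3 lie in the lower tail in mes-4 and in the double mutant, at -0.72 or below, and those of the other 4 genes lie near the centre.

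The 3 lowered genes differed in how far the double mutant lay from mes-4. The same arrays chose these genes, so passing or missing the threshold below is a description and not a test. For tofu-2 the double mutant was lower than mes-2 by a difference of -1.56 (SE 0.18) and lower than mes-4 by -1.21 (SE 0.18), both past the threshold, as 2.62% and 0.318% of all genes were in that direction. For eri-7 and tdrd-3 the double mutant differed from mes-4 by -0.06 (SE 0.21) and -0.17 (SE 0.18), both within the spread of the arrays. Against mes-2 the same genes differed by -0.74 (SE 0.21) and -0.70 (SE 0.18), of which the tdrd-3 difference passed the threshold and the eri-7 difference did not. The double mutant ratio minus the sum of the single mutant ratios was -0.83 for tofu-2 (SE 0.22), 0.78 for eri-7 (SE 0.26) and 0.65 for tdrd-3 (SE 0.22), and all 3 missed the threshold, which 0.551% of all genes passed below 0 and 0.683% above. The order of the fitted ratios, from mes-2 through mes-4 to the double mutant, was the same for all 3 genes. For eri-7 and tdrd-3 its last step lay within the spread, and was below 0 in 21 and 23 of the 25 other settings. The wild-type strain changes along with mes-4, and the picking of germ lines changes with the double mutant, so these cannot be told apart from genotype.

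The dye that labelled the mutant RNA was not used to choose the genes, and it shifted 4 of the 7. Each group had 2 arrays with the mutant RNA in Cy5 and 2 with it in Cy3. Ratios were higher in Cy5 than in Cy3 by 0.49 for tofu-2 (SE 0.15), with a limma adjusted p of 0.0282. For tofu-1 the shift was 0.49 (SE 0.16, limma adjusted p = 0.0436), for eri-6 it was 0.42 (SE 0.11, limma adjusted p = 0.0184) and for tdrd-3 it was 0.47 (SE 0.15, limma adjusted p = 0.0361). The calls of tofu-2, tdrd-3 and tofu-1 depended on single arrays, and those of tofu-1, eri-6 and tdrd-3 on the replicate number as a block. Over 21 other settings eri-6 was called in 20, tofu-2 in 16, tdrd-3 in 13 and tofu-1 in 10. With the replicate block, tofu-1, eri-6 and tdrd-3 had limma adjusted p-values of 0.0698, 0.0635 and 0.073. The call of tofu-2 was lost without mes-2 array 1, 2 or 4, mes-4 array 1 or double mutant array 4. The call of tdrd-3 was lost without any 1 mes-2 array or without mes-4 array 1, 2 or 4. That of tofu-1 was lost without any 1 mes-2 or mes-4 array, or without double mutant array 3 or 4. Over all genes 15.2% were called higher in Cy5 and 16.8% lower, so dye effects were common on these arrays. The shifts of eri-7 at 0.42 (SE 0.17), ego-1 at 0.30 (SE 0.13) and rrf-1 at -0.17 (SE 0.21) had limma adjusted p-values of 0.0833, 0.1 and 0.55.

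The size of the shift varied between mutants, with no test of that difference. For eri-7 the mes-2 arrays averaged -0.43 in Cy5 and -1.25 in Cy3, and for tdrd-3 they averaged -0.40 and -1.25. For tofu-2 the corresponding values were -0.09 and -0.68. The higher pair of mes-2 arrays named above for eri-7 and tdrd-3 was the Cy5 pair. On Cy5 arrays alone neither gene was called in mes-2. For the double mutant tdrd-3 averaged -1.51 in Cy5 and -1.53 in Cy3, and tofu-2 averaged -1.69 and -2.18. For eri-7 in mes-4 the order turned, with -1.58 in Cy5 and -1.46 in Cy3. Because each group holds both dyes equally, this shift averages out of the fitted ratios.

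**Figure D3:**
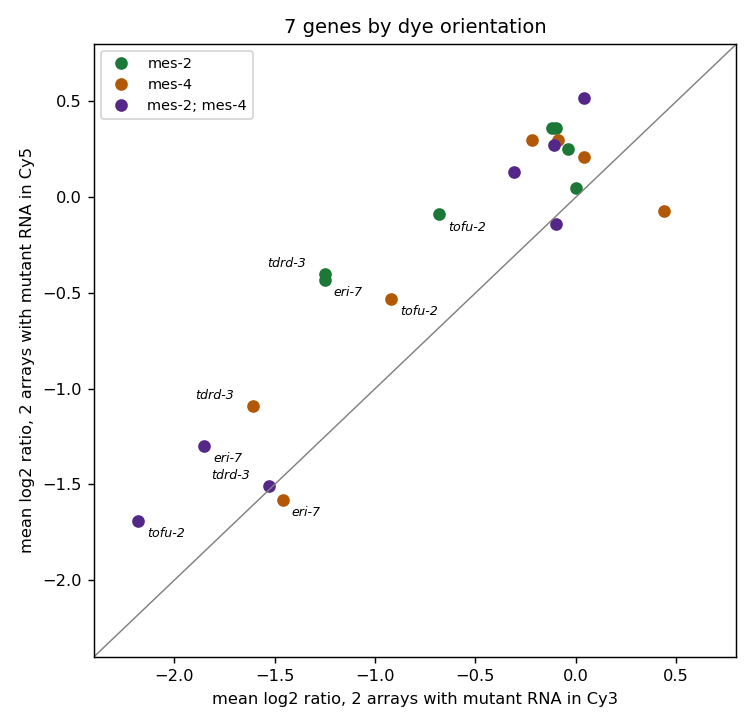
Mean log2 ratio on the 2 arrays with mutant RNA in Cy5 (vertical axis) against the mean on the 2 arrays with it in Cy3 (horizontal axis), 1 point per gene and mutant, with the line of equal values. The mes-2 points of eri-7 and tdrd-3 lie above the line, at -0.43 and -0.40 in Cy5 against -1.25 in Cy3.

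The wider small RNA pathways were read from a list of 68 other genes, of which 53 were tested. In mes-2, 1 of these was called lower, against 1.30% of all genes, and 1 higher, against 3.94%. In mes-4, 2 were called lower, against 1.39%, and 0 higher by limma at adjusted p under 0.05, against 2.52%, with 5 higher at an unadjusted p under 0.05. In the double mutant 11 of 53 (20.8%) were called lower, against 6.25% of all genes, and 3 (5.66%) higher, against 9.62%. The median of the 53 was -0.09 in the double mutant. Germ line markers also lay lower in the double mutant, as given above, and their part in this count was not tested.

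Of the genes that work with those described above, slfl-3 and eri-5 were lower in both mes-4 and the double mutant. SLFL-3 is a partner of TOFU-1 and TOFU-2 in the nuclease described above. Its ratios were -0.78, -0.76, -0.29 and -0.30 in mes-4, and -0.70, -0.24, -0.86 and -0.43 in the double mutant. All 8 values were below 0, and the groups overlapped. The fitted ratios were -0.53 in mes-4 (SE 0.08, limma adjusted p = 0.00306) and -0.56 in the double mutant (SE 0.08, limma adjusted p = 0.000675). In mes-2 slfl-3 was also the gene called lower, at -0.34 (SE 0.08, limma adjusted p = 0.0289), with -0.74 and -0.68 on the Cy3 arrays and 0.06 and -0.01 on the Cy5 arrays. That call was lost on Cy5 arrays alone (0.02) and on Cy3 arrays alone (-0.71). It was also lost in the absence of any 1 mes-2 array or of mes-4 array 1 or 2, at values from -0.39 to -0.30. The slfl-4 gene, on the same list of piRNA processing genes, was not called in any mutant. It lay at -0.09 in mes-2, -0.40 in mes-4 and -0.09 in the double mutant (SE 0.11 each).

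ERI-5 is a Tudor domain protein that links Dicer to the polymerase RRF-3 in the ERI complex. The eri-5 values were -0.99, -0.93, -0.79 and -0.47 in mes-4, and -1.25, -0.62, -1.22 and -0.82 in the double mutant. In mes-2 they were -0.13, -0.51, 0.07 and -0.51, which overlapped mes-4 by a narrow margin. The fitted ratios were -0.79 in mes-4 (SE 0.08, limma adjusted p = 0.000394) and -0.98 in the double mutant (SE 0.08, limma adjusted p = 2e-05). Of the 5 tested genes on the ERI list other than eri-6 and eri-7, eri-5 was the only one called in any mutant.

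Genes called lower in the double mutant spread over several steps of the pathways. Among piRNA transcription genes 2 of 3 tested were lower, tofu-4 at -0.46 (SE 0.09) and tofu-7 at -0.59 (SE 0.14). Among 9 piRNA processing genes slfl-3 and parn-1, the trimmer of piRNA 3′ ends, were lower, with parn-1 at -0.62 (SE 0.11). Among 9 Mutator genes 3 were lower: mut-14 at -0.75 (SE 0.13), mut-15 at -0.63 (SE 0.14) and nyn-1 at -0.38 (SE 0.12). The Argonaute genes wago-1 and hrde-1, whose proteins carry secondary siRNAs, and the P granule gene pgl-1, which is also on the germ line marker list, made up the rest together with eri-5. Beyond the genes with the largest changes, these were named after their values were seen.

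For wago-1 the double mutant values were -1.41, -0.34, -0.70 and -1.64, with a fitted ratio of -1.02 (SE 0.25, limma adjusted p = 0.0176). For hrde-1 they were -1.46, -0.03, -0.84 and -1.49, with a fitted ratio of -0.96 (SE 0.27, limma adjusted p = 0.0376). Both were lowest on double mutant arrays 1 and 4, which stood apart from arrays 2 and 3 along the axis given above. Without array 1 or array 4, wago-1 stood at -0.88 or -0.79 and hrde-1 at -0.84 or -0.68, and neither was called. The call of hrde-1 was also lost without double mutant array 3, mes-2 array 2 or 3, or mes-4 array 1. Without double mutant array 1, 6 of the 53 genes were called lower in the double mutant. Without mes-4 array 3 and double mutant arrays 1 and 4, 8 were called lower and 11 higher. Without double mutant arrays 2 and 3, 21 were called lower. The balance of lower and higher calls in the list therefore depended on which double mutant arrays were used. Counts over all 12887 genes moved as well. At an unadjusted limma p under 0.05, 1621 were lower and 1998 higher in the double mutant on all arrays. They were 1503 and 1818 without double mutant array 1, and 2170 and 2051 without the 3 arrays. Without double mutant arrays 2 and 3 they were 1943 and 2563. What part of the change was particular to the list was not tested. The double mutant calls of tofu-2, eri-7 and tdrd-3 held in all 25 other settings. Those 3 genes were chosen from ratios on these same arrays, so this adds no support to their calls.

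Genes called higher were few. The dsRNA transport gene sid-5, on the X chromosome, had values of 1.71, 1.94, 1.83 and 3.07 in the double mutant, with a fitted ratio of 2.14 (SE 0.17, limma adjusted p = 1.51e-05). It was called higher in all 25 other settings. The nuclear RNAi gene hrde-2 was at 0.50 (SE 0.08, limma adjusted p = 0.00138) and the germ granule helicase gene znfx-1 at 0.33 (SE 0.08, limma adjusted p = 0.012), a call lost without double mutant array 2 (0.29). In mes-2 the polymerase gene rrf-2 was the gene called higher, with values of 1.09, 0.85, 1.08 and 0.99, a fitted ratio of 1.00 (SE 0.25) and a limma adjusted p of 0.0462. It was called in 10 of the 25 other settings, and lost in the absence of any 1 mes-2 array, at values from 0.96 to 1.02. No gene of the 4 tested on the Tudor domain list besides tdrd-3 was called by limma in any mutant, with 2 lower in the double mutant at an unadjusted p under 0.05. That list left out eri-5, whose product also has a Tudor domain and which was called lower in mes-4 and the double mutant.

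**Figure D4:**
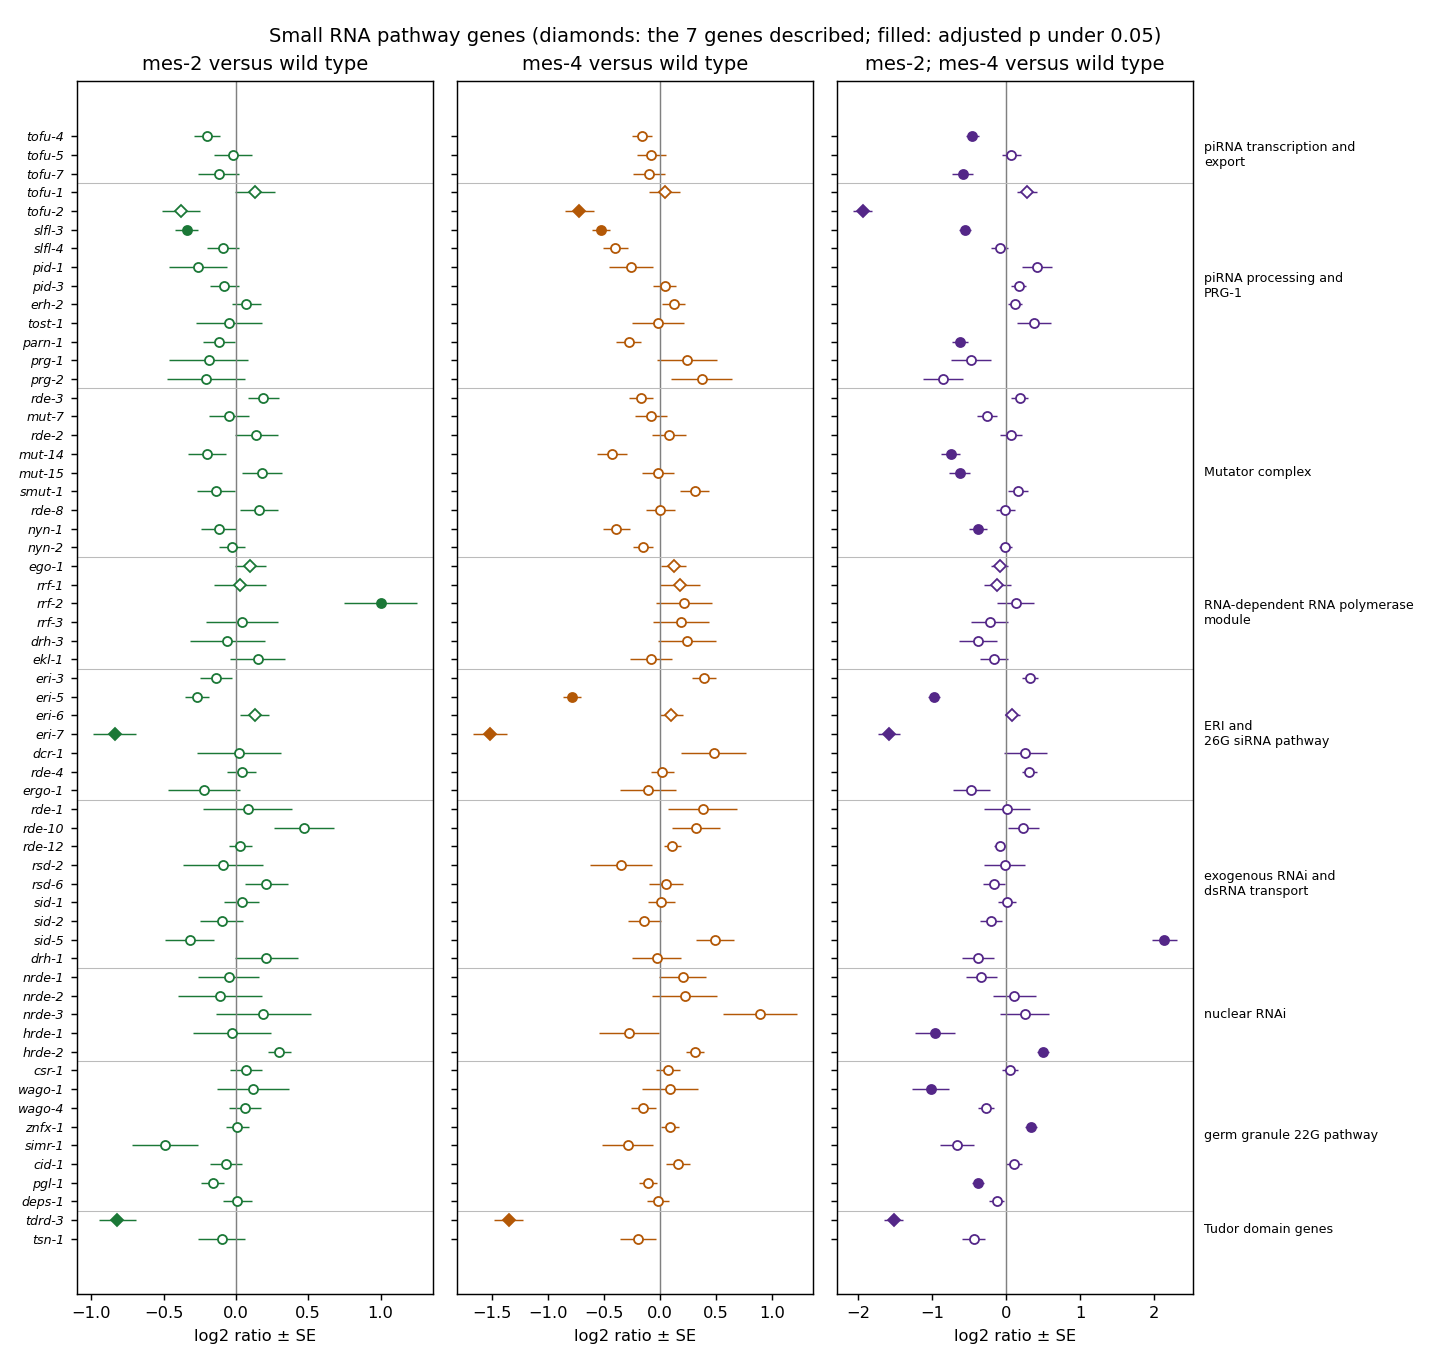
Fitted log2 ratio with its SE (horizontal axis) in each mutant for the small RNA pathway genes tested, grouped by step, each gene shown once. Filled symbols passed an adjusted p of 0.05 and diamonds mark the 7 genes described. In the double mutant 11 of the 53 other genes are filled below 0 and 3 above.

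Among the nearest neighbours of tofu-2, eri-7 and tdrd-3, 1 gene beside tdrd-3 was also lower. Neighbours were the 2 nearest tested genes on each side of each of the 9 genes in the gene order of assembly WBcel235, 28 genes in all. In mes-2, 2 were called lower (7.14%, against 1.30% of all genes) and 2 higher. In mes-4, 1 was lower (3.57%, against 1.39%) and 1 higher. Of the 28, 1 was lower in the double mutant (3.57%, against 6.25%) and 5 higher (17.9%, against 9.62%). The 4 genes around eri-7 and eri-6 had ratios from -0.34 to 0.56, and the one called was cmt-1, higher in the double mutant at 0.56 (SE 0.14). Of 70 genes with 5 a side, 4.29%, 4.29% and 7.14% were called lower in mes-2, mes-4 and the double mutant. Those called higher were 5.71%, 2.86% and 12.9%. Farther out than those 4, cps-6 was lower in mes-2 at -0.70 and eif-3.H in the double mutant at -0.95 (SE 0.11 and 0.08). Near tdrd-3, pei-2 lay at 1.39 in mes-2, -0.52 in mes-4 and -0.58 in the double mutant (SE 0.11 each).

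Y50D4C.6, the gene beside tdrd-3, was lower in all 3 mutants, at -0.61 in mes-2, -0.99 in mes-4 and -0.55 in the double mutant (SE 0.13 each). Among the 28 nearest genes, the other lower neighbour was F07F6.7 near tofu-6, at -1.01 in mes-2 (SE 0.23). Higher neighbours were EEED8.2 near tofu-6, at 0.63 in mes-4 and 1.56 in the double mutant (SE 0.13), and EEED8.15 at 0.42 in mes-2 and 0.37 in the double mutant (SE 0.11). F26A3.4, beside ego-1, was higher at 1.20 in mes-2 and 0.52 in the double mutant (SE 0.12), and Y106G6D.2 near mut-16 was higher at 0.77 in the double mutant (SE 0.18). None of the 9 genes lies on the X chromosome. On chromosome I, which holds 5 of them, 9.61% of genes were called lower in the double mutant, on chromosome V 4.44%, and on the X chromosome 1.89%.

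**Figure D5:**
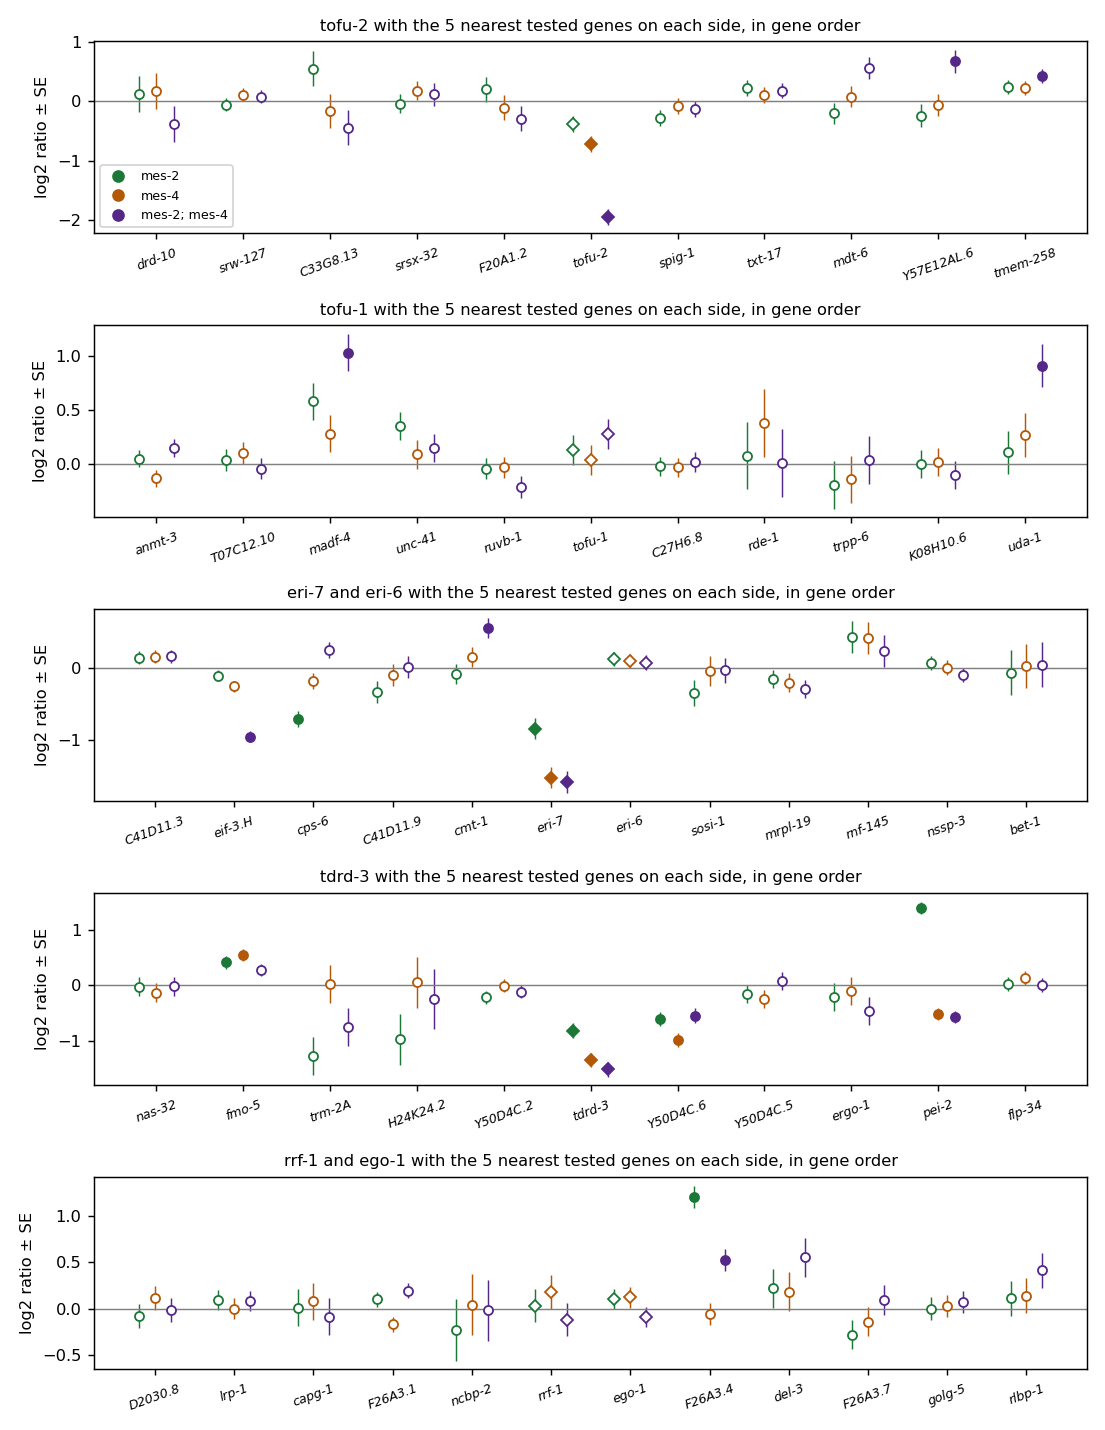
Fitted log2 ratio with its SE (vertical axis) of the genes described (diamonds) and of the 5 nearest tested genes on each side, in gene order and not to scale, coloured by mutant. Filled symbols passed an adjusted p of 0.05. Y50D4C.6, beside tdrd-3, lies between -0.99 and -0.55 in the 3 mutants.

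Profiles were compared by the root mean square difference over the 12 arrays, among 6917 named genes with a value on every array. Nearest to the mean profile of the 7 genes was lelo-2, at 0.15, followed by mrps-9, slfl-3, trmt-6 and elpc-3, each at 0.17. The mean mixes 3 lowered genes with 4 near 0, and lelo-2 itself had ratios of -0.25, -0.45 and -0.80 in mes-2, mes-4 and the double mutant (SE 0.09 each). The single profiles, compared after their values were seen, had more distant nearest genes. The profile of tofu-2 was closest to him-19, at 0.28, with ratios of -0.43, -0.78 and -1.74 (SE 0.21 each). The profiles of eri-7 and tdrd-3 were both closest to mct-1, at 0.40 and 0.44, with ratios of -0.78, -1.58 and -1.01 (SE 0.15 each).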

How the data were processed

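The authors deposited a log ratio for every probe on every array, read here as log2 of mutant over wild type. Base, normalization, spot filter and direction are not given in the sources used here. On a natural log the folds would be larger, and tofu-2 in the double mutant would stand at 14.4% of wild type. Per the labels, the mutant is channel 1, the RNA was amplified poly-A RNA labelled with Cy3 or Cy5, and the replicates were biological. Of 22490 probes 17461 carried 1 gene name and 5029 carried no name, and 17371 of the named ones matched the gene table while 90 did not. Probes of a gene were averaged. Genes were kept if no group lacked more than 1 of its 4 arrays.

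All 12 arrays entered 1 limma 3.58.1 fit in R 4.3.3, with a coefficient per mutant and a dye term. Two-sided p-values were adjusted by Benjamini-Hochberg over 12887 genes, and calls used 0.05. The procedure was tested on simulated data. Named were the 9 genes, in each mutant the 3 called pathway genes at either extreme with 1 sign on every array, the 5 nearest profiles, called neighbours, and mes-2 and mes-4. Other genes named were chosen after their values were seen. The members and lists were chosen with earlier results of these data known. Alternatives covered the dye term, replicate block, centring, scaling, probe averaging, filter, array weights and arrays left out.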

Additional observations from a re-analysis of the deposited data

Results flagged for a closer look

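Among the 21 sets of 4 arrays (7 genes in 3 mutants), 2 held an array far from the others, and chance alone gives about 1 in 20 such sets. Double mutant array 3 gave -2.66 for tofu-2, while the other 3 double mutant arrays lay between -1.77 and -1.61. For ego-1, mes-4 array 4 gave 0.38, while the other 3 lay between 0.03 and 0.05. Each set mixed both dyes, and the flags took no account of dye. After the group and dye terms, the tofu-2 residuals on double mutant arrays 1 to 4 were 0.47, -0.08, -0.48 and 0.08. For ego-1 on mes-4 arrays 1 to 4 they were 0.08, 0.05, -0.23 and 0.10. Neither flagged array stood alone in these residuals.

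The double mutant differed from a single mutant for tofu-2 and tdrd-3 in the fit of the difference itself. The values were -1.56 for tofu-2 against mes-2, -1.21 for tofu-2 against mes-4 and -0.70 for tdrd-3 against mes-2. These arrays also chose the genes, so the differences are given as a description.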

How the results depend on the processing

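Of the 7 genes described, tofu-2, eri-7 and tdrd-3 kept their direction and their double mutant call in all 25 other settings. In mes-4 they were called in 20, 24 and 23 of these, and in mes-2 in 5, 23 and 24. The settings reuse the arrays that chose these genes, so these counts are a description. After the dye term, the deviations of arrays with the same replicate number correlated at -0.448 to 0.479. Because 1 axis held 47.0% of the remaining variance, this range does not settle whether the replicate numbers pair the samples. Counts of called genes moved by more than 1.5 times in the settings below, and the cause was not tested. Genes called in mes-2 (676 as reported) were 402 with no dye term, 1054 with array weights, 1185 without mes-4 array 3 and double mutant arrays 1 and 4, 362 on Cy5 arrays, 90 on Cy3 arrays, and 357 to 795 with 1 array left out, lowest without mes-2 array 2. In mes-4 (504) they were 283 with no dye term, 323 with the replicate block, 876 after scaling, 2160 with array weights, 1409 without the 3 arrays named, 885 without double mutant arrays 2 and 3, 93 on Cy5 arrays, 0 on Cy3 arrays (2218 at an unadjusted limma p under 0.05) and 210 to 681 with 1 left out, lowest without mes-4 array 1. In the double mutant (2046) they were 1301 with no dye term, 3238 with array weights, 173 from its own arrays alone, 872 on Cy5 arrays, 590 on Cy3 arrays and 1289 to 2152 with 1 left out, lowest without its array 4. Pathway genes called in mes-2 (2) were 0 with no dye term, with the replicate block, on Cy5 arrays and on Cy3 arrays (3, 4, 6 and 7 at an unadjusted limma p under 0.05), 1 after centring on autosomes or with values on 2 of 4 arrays, 4 with array weights, 6 without the 3 arrays, and 0 to 2 with 1 left out. In mes-4 (2) they were 1 with no dye term, 7 after scaling, 14 with array weights, 14 without the 3 arrays, 4 without double mutant arrays 2 and 3, 0 on either dye (7 in Cy5 and 6 in Cy3 unadjusted) and 2 to 4 with 1 left out. In the double mutant (14) they were 9 with no dye term, 27 with array weights, 1 from its own arrays, 25 without arrays 2 and 3, 3 on Cy5, 6 on Cy3 and 9 to 16 with 1 left out. Neighbours called in mes-2 (4) were 2 with the replicate block, 2 on Cy5, 1 on Cy3, 7 with 5 genes a side and 1 to 4 with 1 left out. In mes-4 (2) they were 1 with no dye term, 1 with the replicate block, 7 with array weights, 4 without the 3 arrays, 0 on either dye (4 in Cy5 and 6 in Cy3 unadjusted), 5 with 5 genes a side and 1 to 3 with 1 left out. In the double mutant (6) they were 3 with no dye term, 3 with the replicate block, 1 from its own arrays, 2 on Cy5, 1 on Cy3, 14 with 5 genes a side and 2 to 6 with 1 left out. The slfl-3 ratio in mes-2 changed sign on Cy5 arrays, to 0.02. With 4 arrays a mutant, and 2 for a single dye, a call lost in a smaller fit does not show a weaker effect.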
